A study of Mus musculus with 16 samples.

Results

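The transcripts described are those of Trp53, which encodes the transcription factor p53, of 7 genes that p53 activates (Cdkn1a, Mdm2, Sesn2, Phlda3, Ccng1, Bbc3 and Bax) and of Cdkn2a, which acts upstream of p53. They were found on 1-colour Agilent mouse arrays as the gene probes named for one of these 9 genes. The array holds 13 such probes among 41174 gene probes, and all 13 passed the filter on dim probes, which 34288 probes passed. At the level of genes, 9 of 23160 tested genes are members. Trp53, Mdm2, Sesn2 and Ccng1 have 2 probes each, and the other members have 1.

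RNA from mouse stem cell cultures was hybridised to 16 arrays. From the non-obese diabetic (NOD) strain came 4 arrays of an EpiSC-like ES line, line 1, at passages 7, 10, 5 and 9 (replicates 1 to 4). The same strain gave 2 arrays of an EpiSC-like induced pluripotent stem (iPS) line, line 6, at passages 7 and 12, and 3 arrays of embryonic stem (ES) cells, each with its own title suffix. From strains given only as non-NOD came 2 arrays of epiblast stem cells (EpiSC) at passages 12 and 20, and 2 arrays titled iPS_EpiSC 3M and 1K, called EpiSC iPS here. The non-NOD ES cells were 129 ES cells at passage 8, with 2 arrays labelled mESM from a single source label and 1 array labelled epiESM. What the title suffixes, mESM and epiESM stand for, and how each line was derived, the sources used here do not say. Before RNA extraction the ES cells were freed of feeder fibroblasts by plating on gelatin, while colonies of EpiSC and of the EpiSC-like lines were detached mechanically, per the labels' protocols. EpiSC-like ES is 1 line at several passages and EpiSC-like iPS is another, so p-values measure the spread between these arrays and not between independent lines.

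p53 is held at a low level by Mdm2, a ubiquitin ligase that p53 itself induces, so that the pair forms a feedback loop. When DNA is damaged or growth signals are excessive, p53 accumulates and activates genes that act on the cell cycle (Cdkn1a, Ccng1), restrain growth signalling (Sesn2, Phlda3) or release death signals from mitochondria (Bbc3, Bax). Cdkn2a makes p19Arf, which binds Mdm2 and frees p53, and p16Ink4a, which blocks the cyclin D kinases, from separate first exons. In ES cells the locus is silent under Polycomb proteins, and both p53 and Cdkn2a are known to limit the reprogramming of somatic cells to iPS cells.

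The promoters of the members in RefSeq (build GRCm38.p6) are shown where they bear on p53 or on the choice between the Cdkn2a transcripts. All 9 members have an entry, with 13 starts in all, and the 250 bases before each start were searched on both strands. The motifs were the p53 consensus decamer and the p53 response element, meaning 2 decamers side by side with at most 1 mismatch. Of 32851 such windows of all genes, 7.13% hold a decamer and 0.0761%, or 25 windows, hold a response element. Of the 13 member windows, 2 hold a response element, before the upstream start of Cdkn1a (chr17:29090729-29090978, plus strand) and before Ccng1 (chr11:40755287-40755536, minus strand). Capitals mark the element, which ends 31 bases before the start of Cdkn1a and 175 bases before that of Ccng1.
Cdkn1a upstream start: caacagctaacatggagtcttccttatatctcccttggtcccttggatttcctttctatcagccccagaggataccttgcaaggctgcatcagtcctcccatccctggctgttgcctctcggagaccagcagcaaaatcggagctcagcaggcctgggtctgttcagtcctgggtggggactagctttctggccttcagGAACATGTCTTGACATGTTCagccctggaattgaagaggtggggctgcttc
Ccng1: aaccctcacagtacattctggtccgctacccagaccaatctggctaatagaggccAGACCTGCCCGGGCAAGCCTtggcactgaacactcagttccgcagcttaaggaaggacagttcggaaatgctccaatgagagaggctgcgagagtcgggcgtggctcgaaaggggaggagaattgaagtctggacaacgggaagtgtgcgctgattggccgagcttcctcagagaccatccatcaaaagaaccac
Decamers alone lie before Trp53, Mdm2 and Bax, which are 3 of the other 11 windows. None was found in the windows of Sesn2, Phlda3, Bbc3 or Cdkn2a, which says only that these letters are not within 250 bases of the start. The upstream Cdkn2a start, that of p19Arf (chr4:89294620-89294869, minus strand), has 78.4% G and C with 40 CpG dinucleotides in its window. The downstream start, that of p16Ink4a (chr4:89282193-89282442, minus strand), has 60.0% with 7. These windows are printed because the single Cdkn2a probe is annotated to transcripts from both starts and cannot tell them apart. They hold no capitals, since no searched element was found in them.
Cdkn2a upstream start, p19Arf: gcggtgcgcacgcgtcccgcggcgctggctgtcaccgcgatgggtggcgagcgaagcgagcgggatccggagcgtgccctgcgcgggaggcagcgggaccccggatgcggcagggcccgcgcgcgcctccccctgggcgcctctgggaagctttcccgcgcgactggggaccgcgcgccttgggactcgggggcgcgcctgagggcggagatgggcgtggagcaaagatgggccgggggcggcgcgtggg
Cdkn2a downstream start, p16Ink4a: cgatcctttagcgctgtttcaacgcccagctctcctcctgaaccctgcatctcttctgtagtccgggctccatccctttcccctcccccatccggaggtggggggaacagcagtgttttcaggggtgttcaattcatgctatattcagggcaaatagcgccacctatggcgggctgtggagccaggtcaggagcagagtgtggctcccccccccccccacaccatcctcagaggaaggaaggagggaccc

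Values below are log2 of the processed signal relative to the 75th percentile of the gene spots of the same array, so that 0 is that percentile. The median of all genes moved with the scaling: in the NOD EpiSC-like lines against NOD ES it was -0.27 here, 0.03 after quantile normalization and 0.58 after normexp background correction. Of the gene spots, 26.3% to 88.5% per array exceeded background clearly by the scanner software's flag, and precision is limited by how few arrays a group has. The share was lowest on the arrays labelled NOD ES replicate 1 (26.3%), EpiSC iPS replicate 2 (40.5%) and EpiSC iPS replicate 1 (51.2%), all on slide 6. The array labelled NOD ES replicate 1 stood 0.697 from EpiSC iPS replicate 1 (SD of log2 differences over probes) and 1.13 and 1.15 from the other NOD ES arrays. The array labelled EpiSC iPS replicate 2 stood 0.387 and 0.397 from NOD ES replicates 2 and 3 and 0.963 from its own replicate. Member results of groups that hold either array are therefore given with and without both. The fit estimates a shared spread over all 7 groups, so calls in the other comparisons also depend on these arrays. For the further gene lists, values without both are given for counts, and for named genes whose difference moved by over 1.5 times. The genes named from these lists kept their calls without both arrays. The labels were also checked against markers. All 8 genes of a pluripotency core list were called lower in the NOD EpiSC-like lines than in NOD ES, also without the doubtful arrays. In these lines 11 of 12 primed epiblast markers were called lower than in EpiSC (11 without the doubtful arrays). With the doubtful arrays left out, all 8 core genes were also called lower in EpiSC than in mESM, beside 45.9% of all genes either way. A fall in this list is thus shared with EpiSC. Against EpiSC, 6 of the 8 were then lower in the NOD EpiSC-like lines and 0 higher, beside 41.3%. Pou5f1, the core pluripotency factor Oct4, lay at -4.42 and -3.40 in EpiSC-like iPS, from -1.52 to -0.62 in EpiSC-like ES, at 0.89 and 0.27 in EpiSC and from 2.22 to 4.41 in NOD ES. The mean log2 of the 12 primed epiblast markers was -1.73 and -1.43 in EpiSC-like iPS and 2.16 and 2.15 in EpiSC. EpiSC-like ES lay between, at 0.37 to 0.41. That of 8 extraembryonic endoderm genes was 0.46 and 0.64 in EpiSC-like iPS and -0.56 to -0.36 in EpiSC-like ES, against -1.08 and -1.25 in EpiSC. Sparc is on this list and also on the list of fibroblast genes below. Nanog read -2.56 and -2.36 in EpiSC-like iPS, -2.82 to -2.14 in EpiSC-like ES and -0.79 and -0.48 in EpiSC. Sox2 read -0.01 on both EpiSC-like iPS arrays, 2.01 to 2.44 in EpiSC-like ES and 2.22 and 2.38 in EpiSC. EpiSC-like is thus the name in the titles, and these markers do not bear out an EpiSC-like or pluripotent state for the iPS line. They bear it out only in part for the ES line, where Nanog was as low as in the iPS line and Sox2 lay near EpiSC. In bulk RNA, fewer cells of a type and less RNA per cell cannot be told apart.

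A member is called where limma's adjusted p over all 23160 genes is under 0.05, and the share of all genes called is given beside each count. In the NOD EpiSC-like lines against NOD ES, 3 members were called higher (Cdkn1a, Cdkn2a, Ccng1) and 1 lower (Sesn2) of 9, beside 38.7% of all genes called either way, 16.7% higher and 22.0% lower. With normexp background correction 1 was higher (Cdkn2a) and 2 lower, beside 31.7% of all genes. In EpiSC against mESM 3 were higher (Cdkn1a, Cdkn2a, Mdm2) and 2 lower (Trp53, Bax), beside 24.6% of all genes (12% higher, 12.7% lower), and with normexp 1 was higher and 0 lower, beside 6.56%. In EpiSC-like iPS against EpiSC-like ES 2 were higher (Bbc3, Cdkn2a), beside 25.8% (14.2% higher, 11.6% lower). In EpiSC iPS against EpiSC 2 were higher (Sesn2, Bbc3), beside 21.2% (12.2% higher, 8.99% lower). The counts for EpiSC-like iPS against EpiSC-like ES, EpiSC iPS against EpiSC and the NOD EpiSC-like lines against NOD ES are near the share of all genes. They are no result about the members as a group. The count of 5 in EpiSC against mESM lay above the share of 24.6%, and with slide as a fixed block it was 0 beside 8.77%. In the NOD EpiSC-like lines against EpiSC 4 were higher (Cdkn1a, Cdkn2a, Phlda3, Bbc3) and 0 lower, beside 16.1% of all genes either way, 7.88% higher and 8.22% lower. In NOD ES against mESM 4 were higher (Sesn2, Phlda3, Bbc3, Mdm2) and 0 lower, beside 8.94% either way, 5.88% higher and 3.06% lower. In that comparison the deposited values gave 3 higher and 1 lower (Trp53). The median member difference was 0.21 in the first of these comparisons (all genes -0.27), 0.61 in EpiSC against mESM (-0.34), 0.47 in EpiSC-like iPS against EpiSC-like ES (0.28), 0.41 in EpiSC iPS against EpiSC (0.42), 0.76 in the NOD EpiSC-like lines against EpiSC (0.27) and 1.13 in NOD ES against mESM (0.22). Tested probe by probe, the shares of all probes called in these 6 comparisons were 36.1%, 22.2%, 24.7%, 18.6%, 13.9% and 7.64%, and 10.2% for the difference between the NOD and non-NOD state differences. The NOD state difference is that of the EpiSC-like lines against NOD ES. The non-NOD state difference is that of EpiSC against mESM, and the epiESM array has no part in it. Comparisons that share a group are not independent of each other. The shares of all genes given here also stand beside the counts of the further gene lists below.

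**Figure D1:**
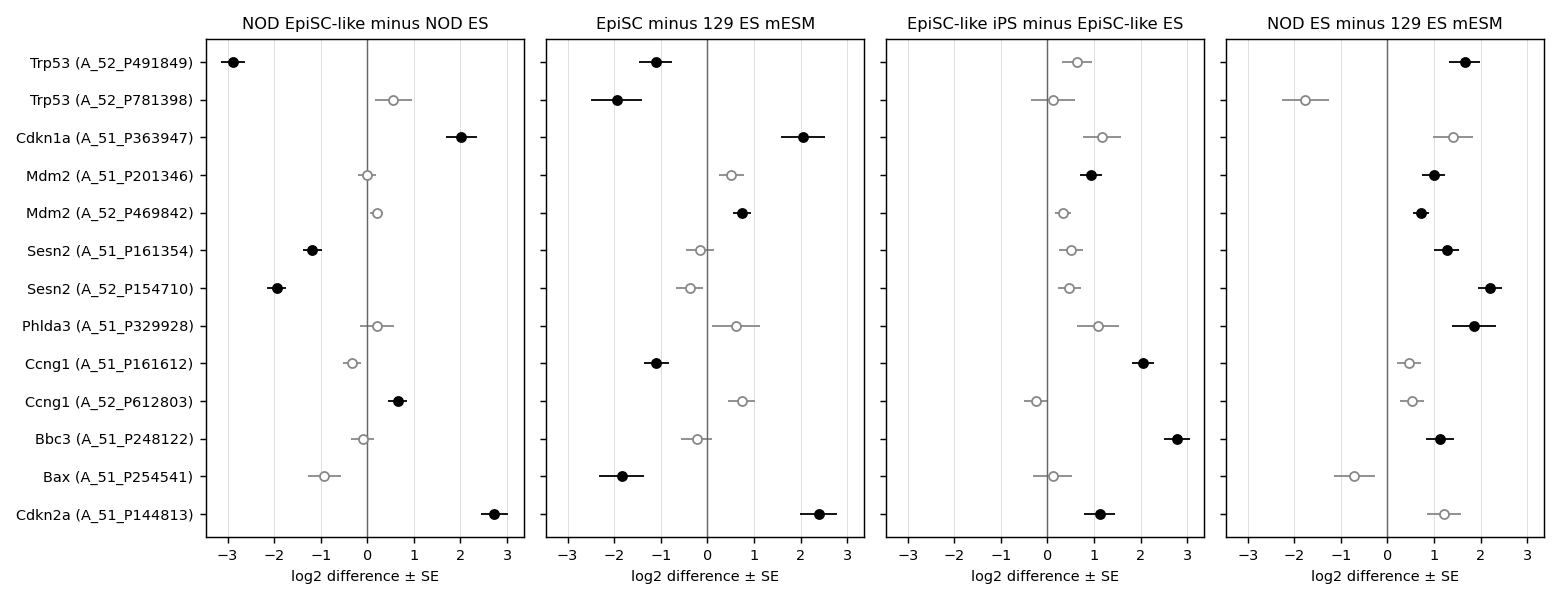
Log2 differences ± SE of the 13 member probes in 4 comparisons, each probe tested on its own. Filled points passed an adjusted p of 0.05 over 34288 probes, open points did not. Cdkn1a and Cdkn2a lie to the right in both state comparisons (2.02 and 2.73, 2.05 and 2.39), and the Trp53 probes lie on opposite sides of 0 in the first and last panels.

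Cdkn1a, which encodes the cyclin-dependent kinase inhibitor p21, had its highest level in EpiSC-like iPS. The probe (A_51_P363947, mm7 chr17:27293819-27293878, 10 spots) read 3.94 and 3.77 in EpiSC-like iPS and 2.86, 2.52, 2.79 and 2.58 in EpiSC-like ES. It read 1.74, 1.03 and 0.98 in NOD ES, with the array of doubtful label highest. No NOD ES array reached any EpiSC-like array. Cdkn1a was higher in the EpiSC-like lines by 2.02 ± 0.34 (log2 ± SE, 4.06-fold, 6 arrays against 3, adjusted p = 0.00057), and by 2.27 ± 0.13 without the arrays of doubtful label. Within the slide that held both sides the difference was 1.51 (1 array against 2). The call was lost with normexp background correction (0.74, adjusted p = 0.232) and with slide as a fixed block (2.02, adjusted p = 0.1), and over all alternatives the adjusted p lay between 7.72e-07 and 0.232.

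Among non-NOD lines the order was the same for EpiSC against mESM, and not for EpiSC against the epiESM array. Cdkn1a read 2.03 and 1.76 in EpiSC and -0.15 on both mESM arrays, the lowest level of all groups, and the difference was 2.05 ± 0.47 (adjusted p = 0.00836, 2 arrays against 2). That call was lost without EpiSC replicate 1 (1.92) and without either mESM array (2.05). The epiESM array, also 129 ES cells at passage 8, read 2.38, above both EpiSC arrays, and was given no test as a single array. EpiSC iPS replicate 1 read 2.84 and the array labelled EpiSC iPS replicate 2 read 1.03, as the NOD ES arrays did. The NOD EpiSC-like lines exceeded EpiSC by 1.37 ± 0.39 (adjusted p = 0.0346), a call that was lost on leaving out any 1 of the 8 arrays compared other than EpiSC-like ES replicate 2, with values from 1.24 to 1.51. Between EpiSC-like iPS and EpiSC-like ES the arrays did not overlap, and the difference of 1.17 ± 0.41 did not pass (adjusted p = 0.0554, and 0.000154 without the doubtful arrays, in a range from 0.000154 to 0.414 over all alternatives).

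Cdkn2a was likewise highest in EpiSC-like iPS and lowest in mESM. The probe (A_51_P144813, mm7 chr4:88678367-88678426, 10 spots) read 0.27 and 1.1 in EpiSC-like iPS and -0.50, -0.64, -0.03 and -0.55 in EpiSC-like ES. In NOD ES it read -2.42, -2.64 and -2.75. The groups did not overlap, and Cdkn2a was higher in the EpiSC-like lines by 2.73 ± 0.28 (6.64-fold, adjusted p = 2.02e-05; 2.82 ± 0.26 without the doubtful arrays). It was called in all 22 alternative analyses that gave a p, with differences from 1.65 to 3.19. The probe was not well above background on the array labelled NOD ES replicate 1 or on that labelled EpiSC iPS replicate 2.

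In EpiSC, Cdkn2a read -1.73 and -1.11, and in mESM -3.84 and -3.78, a difference of 2.39 ± 0.39 (adjusted p = 0.00126). That call was lost with slide as a fixed block (2.1, adjusted p = 0.0769, in a range from 0.000267 to 0.0769 over all alternatives). The epiESM array read 0.46, above every array except EpiSC-like iPS replicate 2. EpiSC iPS replicates 1 and 2 read -1.65 and -2.73. The NOD EpiSC-like lines exceeded EpiSC by 1.55 ± 0.33 (adjusted p = 0.00885; 1.23 and not called without EpiSC replicate 1), and EpiSC-like iPS exceeded EpiSC-like ES by 1.12 ± 0.34 (adjusted p = 0.0337). The last call was lost without EpiSC-like iPS replicate 2 (0.70) and without EpiSC-like ES replicates 1, 2 or 4 (1.05 to 1.09). The state difference of Cdkn2a did not pass as different between NOD and non-NOD lines (0.34 ± 0.49, adjusted p = 0.728; 0.43 ± 0.41 without the doubtful arrays), nor did that of Cdkn1a (-0.03 ± 0.58, adjusted p = 0.985; 0.21 ± 0.21 without).

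Markers of fibroblasts, which can remain from the feeder layer, moved with both genes. Of 20 fibroblast genes, 13 were called higher and 0 lower in the NOD EpiSC-like lines against NOD ES, beside 16.7% and 22.0% of all genes. Without the doubtful arrays these were 20 and 0, beside 51.7% of all genes either way. In EpiSC against mESM 15 and 0 were called, beside 12% and 12.7%. Leaving out the doubtful arrays gave 18 and 0 there, beside 45.9% of all genes either way. Their summed level, relative to the 75th percentile, was 796 to 1130 in EpiSC-like ES, 754 and 838 in EpiSC-like iPS, 511 and 560 in EpiSC, 437 in epiESM, 119 to 407 in NOD ES and 71.4 and 77.6 in mESM. EpiSC iPS replicate 1 had 1010 and the array labelled EpiSC iPS replicate 2 had 123. All 20 were well above background on every EpiSC, EpiSC-like and epiESM array, and Dcn, a defining fibroblast gene, read 5.12 to 5.43 in EpiSC-like ES and -4.02 and -3.99 in mESM. The part of these cells in the levels of Cdkn1a and Cdkn2a was not tested. Between EpiSC-like iPS and EpiSC-like ES, 0 of the 20 markers were called higher in the iPS line and 5 lower (Col3a1, Col5a2, Lum, Postn and Pdgfrb), beside 14.2% and 11.6% of all genes. Without the doubtful arrays 2 were higher and 14 lower, beside 50.6% of all genes either way. The summed levels of these lines overlapped. The mean log2 of the markers did not (3.17 and 3.28 in the iPS line, 4.02 to 4.28 in the ES line). Other markers moved as well: 5 of 8 extraembryonic endoderm genes and 5 of 8 neuroectoderm genes were called higher in the NOD EpiSC-like lines than in NOD ES (6 and 6 without the doubtful arrays), and their part was not tested.

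**Figure D2:**
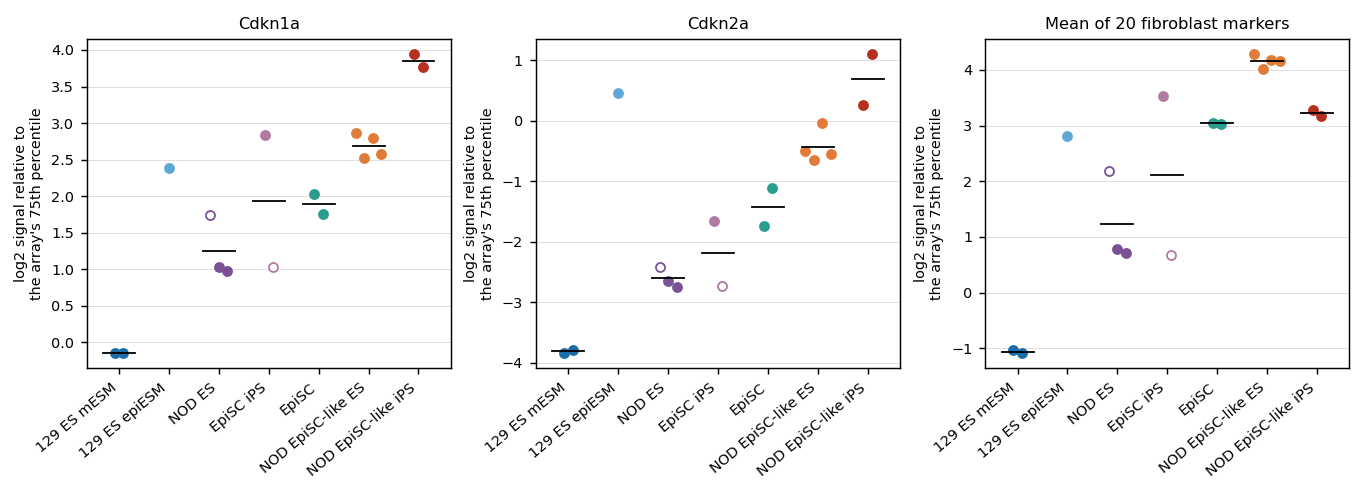
Cdkn1a, Cdkn2a and the mean of 20 fibroblast markers on each of 16 arrays, as log2 signal relative to the array's 75th percentile. Points are arrays, lines are group means, and open points are the 2 arrays of doubtful label. Both genes are lowest in mESM (-0.15 and -3.81) and highest in EpiSC-like iPS (3.85 and 0.69), and the markers have their highest group mean in EpiSC-like ES.

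Genes known to control the Cdkn2a locus split in direction. In the NOD EpiSC-like lines against NOD ES, 4 of 16 were called higher and 6 lower, beside 16.7% and 22.0% of all genes. The median was -0.24 beside -0.27 for all genes. Without the doubtful arrays 4 and 9 were called, beside 51.7% of all genes either way. Cbx7, a Polycomb subunit that represses the locus, fell by 4.24 ± 0.24 (adjusted p = 3.45e-07), Tbx3, a T-box repressor of p19Arf, fell by 4.22 ± 0.66 (-5.22 ± 0.18 without the doubtful arrays), and Eed, a core subunit of the H3K27 methyltransferase, fell by 2.33 ± 0.31. Cbx7 lay between -1.90 and -0.27 on all 6 EpiSC-like arrays and between 2.94 and 3.46 in NOD ES. Ets1, an activator of p16Ink4a, rose by 2.02 ± 0.40, and 2 other Polycomb genes, Cbx8 and Bmi1, rose by 1.88 ± 0.29 and 1.04 ± 0.25. In EpiSC against mESM, 5 were higher and 5 lower, among them Cbx7 (-3.80 ± 0.34), Tbx3 (-3.81 ± 0.92), Ets1 (4.25 ± 0.55) and Bmi1 (2.27 ± 0.35). Leaving out the doubtful arrays gave 6 and 5 there, beside 45.9% of all genes either way. Tbx3 is also on the list of naive ES markers, of which 10 of 12 fell in the first comparison (11 without the doubtful arrays). On the epiESM array, where Cdkn2a read 0.46, Cbx7 read 3.12, as on the mESM arrays at 3.21 and 3.25. In EpiSC-like iPS against EpiSC-like ES, Cbx7 (1.30 ± 0.29) and the histone demethylase Kdm2b (0.73 ± 0.20) were higher, while Ets1 and Id1 were lower.

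The other inhibitors of cyclin-dependent kinases and the RB pathway showed 6 of 14 genes called higher and 3 lower in the NOD EpiSC-like lines against NOD ES. These stand beside 16.7% and 22.0% of all genes (median 0.32 beside -0.27 for all genes). Without the doubtful arrays 7 and 5 were called, beside 51.7% of all genes either way. Cdkn2b, the p15 gene that neighbours Cdkn2a, rose by 2.30 ± 0.60, Cdkn1c, the p57 gene, by 2.33 ± 0.63, and Ccnd2, encoding cyclin D2, by 2.29 ± 0.64. Without the doubtful arrays these differences were 2.98 ± 0.12, 3.21 ± 0.18 and 3.02 ± 0.12. E2f1, an activator of S phase genes, fell by 1.60 ± 0.15, Cdk6 by 1.48 ± 0.23 and Cdk4 by 0.94 ± 0.28. Cdkn2b read 3.60 and 3.59 in EpiSC-like iPS, 2.86 to 3.15 in EpiSC-like ES, 0.28 to 2.35 in NOD ES and -0.94 and -0.90 in mESM, with epiESM at 1.96. EpiSC against mESM showed 6 of 14 higher and 1 lower, with Ccnd2 (4.33 ± 0.89), Cdkn1c (3.62 ± 0.88) and Cdkn2b (2.89 ± 0.83) leading and E2f1 lower (-0.80 ± 0.21). Leaving out the doubtful arrays gave 6 and 4 in that comparison, beside 45.9% of all genes either way. Cdk6 went the other way there, higher by 2.37 ± 0.32 (adjusted p = 0.000392). Its state differences differed by -3.85 ± 0.40 (adjusted p = 0.000351). In EpiSC-like iPS against EpiSC-like ES, Cdkn2d (2.06 ± 0.27) and Cdkn1b (0.91 ± 0.25), 2 further kinase inhibitors, were higher, and Rbl1, encoding the RB relative p107, was lower (-2.36 ± 0.38).

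For Trp53 itself the answer depended on the probe. Both probes are annotated to the same transcript and start 9175 bases apart on mm7, the probe A_52_P491849 at chr11:69671206-69671265 with 10 spots and the probe A_52_P781398 at chr11:69662031-69662089 with 1 spot. Their position in exons was not determined, since no mm7 annotation was used here. Over the 16 arrays the probes correlated at r = -0.14 (a description, with arrays grouped by line). The gene-level value rests on the probe with the brighter mean, A_52_P781398, by the rule applied to every gene.

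The 10-spot Trp53 probe read 3.42, 2.92 and 2.83 in NOD ES, and 3.56 and 3.23 in EpiSC iPS. It read 1.39 on both mESM arrays and 1.37 in epiESM. In EpiSC it read 0.47 and 0.10, in EpiSC-like iPS 0.09 and 0.87, and in EpiSC-like ES 0.27, 0.11, -0.49 and -0.51. NOD ES and EpiSC iPS thus formed a high set, 129 ES an intermediate one and all EpiSC and EpiSC-like arrays a low one, with no overlap between these sets. By this probe Trp53 fell in the EpiSC-like lines against NOD ES by 2.89 ± 0.26 (7.43-fold, adjusted p = 9.68e-06; -2.71 ± 0.28 without the doubtful arrays) and in EpiSC against mESM by 1.11 ± 0.36 (adjusted p = 0.0498). It was higher in EpiSC iPS than in EpiSC by 3.11 ± 0.36 (adjusted p = 0.000216; 3.27 ± 0.41 without), and in NOD ES than in mESM by 1.66 ± 0.33 (adjusted p = 0.0139; 1.48 ± 0.33 without). Within the slide that held both sides, the first difference was -2.76.

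The 1-spot Trp53 probe read 1.92, 1.32 and 1.71 in NOD ES and 1.66 and 2.89 in EpiSC-like iPS. In EpiSC-like ES it read 1.98, 1.31, 2.18 and 3.15, in EpiSC 1.87 and 1.04, in EpiSC iPS 2.06 and 1.67, in epiESM 0.99 and on both mESM arrays 3.41. Groups overlapped widely apart from mESM, which was highest. The NOD EpiSC-like lines differed from NOD ES by 0.56 ± 0.40 (adjusted p = 0.302; 0.70 ± 0.49 without the doubtful arrays), and NOD ES from mESM by -1.76 ± 0.50 (adjusted p = 0.0536; -1.89 ± 0.58 and 0.0433 without the doubtful arrays, in a range from 0.0116 to 0.98 over all alternatives). EpiSC was lower than mESM by both probes, here by 1.95 ± 0.55 (-1.95 as a signed difference, adjusted p = 0.0243). That call was lost without EpiSC replicate 2 (-1.53) and without either mESM array (-1.95). The 2 state differences differed from each other by 2.52 ± 0.68 with this probe (adjusted p = 0.0340) and by -1.79 ± 0.45 with the other (adjusted p = 0.0278), so that no direction is given for this gene between strains. Without the doubtful arrays these values were 2.65 ± 0.76 and -1.61 ± 0.43, both called.

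**Figure D3:**
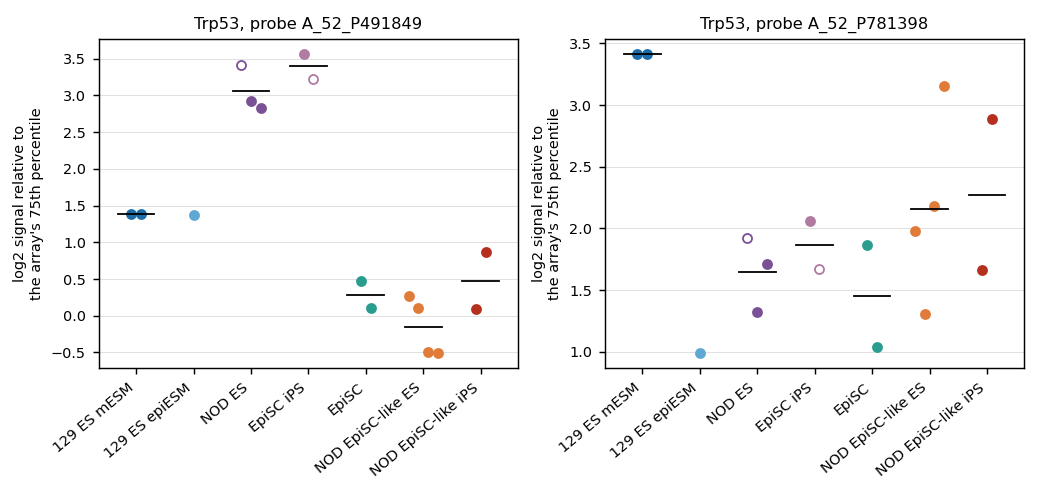
Levels of the Trp53 probes on each of 16 arrays, as log2 signal relative to the array's 75th percentile, with lines at group means and open points for the 2 arrays of doubtful label. On the left, NOD ES and EpiSC iPS lie between 2.83 and 3.56 and all EpiSC and EpiSC-like arrays between -0.51 and 0.87. On the right, mESM is highest at 3.41 and the other groups overlap.

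Mdm2, the ligase that degrades p53, was lowest in mESM by both probes. The probe A_52_P469842 (mm7 chr10:117200593-117200652) read 2.28 and 2.27 in mESM, 2.52 in epiESM, and 2.87 to 3.08 on all arrays of NOD ES, EpiSC iPS, EpiSC and EpiSC-like ES. EpiSC-like iPS was highest at 3.50 and 3.23. Mdm2 was higher than mESM in EpiSC by 0.74 ± 0.19 (adjusted p = 0.0149) and in NOD ES by 0.72 ± 0.17 (adjusted p = 0.0261; 0.74 ± 0.14 without the doubtful arrays). The first call was lost on leaving out any 1 of its 4 arrays (0.69 to 0.78), and the second without NOD ES replicates 2 or 3 or either mESM array (0.71 to 0.73). The second probe, A_51_P201346 (chr10:117204040-117204099, 10 spots), ranged from -1.19 and -1.17 in mESM to 0.03 and 0.49 in EpiSC-like iPS. By that probe EpiSC-like iPS exceeded EpiSC-like ES by 0.94 ± 0.23 (adjusted p = 0.0133), against 0.34 ± 0.16 by the first (adjusted p = 0.145). Between the NOD EpiSC-like lines and NOD ES neither probe passed (0.20 ± 0.14, adjusted p = 0.288, and -0.01 ± 0.19, adjusted p = 0.966; 0.18 ± 0.11 and 0.02 ± 0.18 without the doubtful arrays).

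Of the p53 family and its other regulators, 22 of 23 listed genes were tested. Called higher in the NOD EpiSC-like lines than in NOD ES were 3, and lower 10, beside 16.7% and 22.0% of all genes. The median was -0.56 beside -0.27 for all genes. Without the doubtful arrays 4 and 14 were called, beside 51.7% of all genes either way. Sirt1, a deacetylase of p53, fell by 3.11 ± 0.37, Chek1, a checkpoint kinase, by 2.77 ± 0.32, and Usp7, which removes ubiquitin from Mdm2 and p53, by 2.61 ± 0.18. Hipk2, a kinase that phosphorylates p53, rose by 2.43 ± 0.31, Cul9, a cytoplasmic p53-binding cullin, by 2.02 ± 0.20, and Trp53bp1 by 0.63 ± 0.16. In EpiSC against mESM 3 were higher, the same 3 as before, with Hipk2 at 3.33 ± 0.43, Cul9 at 1.27 ± 0.28 and Trp53bp1 at 0.89 ± 0.22. There 4 were lower, led by Mdm4, the Mdm2 relative that masks p53 (-2.54 ± 0.47), Chek2 (-2.30 ± 0.50) and Trp73 (-1.46 ± 0.43). Leaving out the doubtful arrays gave 5 higher and 7 lower there, beside 45.9% of all genes either way. The state difference of Usp7 was more negative in NOD than in non-NOD lines (-2.13 ± 0.31, adjusted p = 0.00181), as was that of Sirt1 (-2.92 ± 0.64, adjusted p = 0.0131). In EpiSC-like iPS against EpiSC-like ES, Rpl11 (1.38 ± 0.24) and Rpl5 (0.96 ± 0.25), ribosomal proteins that bind Mdm2, were higher, and Chek1 was lower (-2.40 ± 0.39).

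Among the target genes that trigger cell death, Bbc3 separated the EpiSC-like iPS line from the others. Bbc3 encodes PUMA, a BH3-only activator of mitochondrial death. Its probe (A_51_P248122, mm7 chr7:14080459-14080518) read 5.22 and 5.42 in EpiSC-like iPS and 2.86, 2.27, 2.51 and 2.50 in EpiSC-like ES, with no overlap. The difference was 2.78 ± 0.28 (6.89-fold, adjusted p = 6.15e-05), and 2.36 within slide 1 (1 array against 1). With normexp background correction it was 0.81 (adjusted p = 0.259), and over all alternatives the adjusted p lay between 4.19e-06 and 0.259, with 18 of 19 under 0.05. Bbc3 read 4.63, 3.88 and 3.56 in NOD ES, 3.98 and 4.08 in EpiSC iPS, 2.92 and 2.86 in mESM, 2.93 in epiESM and 2.74 and 2.57 in EpiSC. NOD ES exceeded mESM by 1.13 ± 0.29 (adjusted p = 0.0351; 0.83 ± 0.20 without the doubtful arrays) and EpiSC iPS exceeded EpiSC by 1.37 ± 0.32 (adjusted p = 0.0105; 1.32 ± 0.25 without). The first of these calls was lost without NOD ES replicate 2 or either mESM array (1.1 to 1.21), and the second without EpiSC replicate 2 (1.28). The mean of both NOD EpiSC-like lines exceeded EpiSC by 1.27 ± 0.27 (adjusted p = 0.00831), and was not called without EpiSC replicate 1 (1.36) or replicate 2 (1.18). That mean combines the iPS line, which lay above EpiSC, with the ES line, whose arrays overlapped those of EpiSC. It was -0.06 within slide 3, where only the ES line was present.

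Bax, a pore-forming protein of the outer mitochondrial membrane, was lower in EpiSC than in mESM. Its probe (A_51_P254541, mm7 chr7:41641827-41641982, 10 spots) read 1.11 and 0.88 in EpiSC and 2.84 on both mESM arrays, a difference of -1.84 ± 0.48 (adjusted p = 0.0163), which was not called on leaving out any 1 of these 4 arrays (-1.96 to -1.73). EpiSC-like iPS read 1.14 and 1.39 and EpiSC-like ES 0.66, 1.73, 0.85 and 1.38. NOD ES spread widely, at 2.33, 2.86 and 1.20, and the difference from the EpiSC-like lines of -0.92 ± 0.35 did not pass (adjusted p = 0.0563; -0.82 ± 0.42 and 0.144 without the doubtful arrays). The low NOD ES value came from replicate 3, which lay within the EpiSC-like range.

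In the wider Bcl-2 family, 1 of 13 genes was called higher and 4 lower in the NOD EpiSC-like lines against NOD ES, beside 16.7% and 22.0% of all genes (median -0.22 beside -0.27). Without the doubtful arrays 2 and 5 were called, beside 51.7% of all genes either way. Pmaip1, encoding the BH3-only protein NOXA and itself a p53 target, fell by 2.0 ± 0.18, Bid, another BH3-only gene, by 1.91 ± 0.34, and Mcl1, a survival gene, by 1.5 ± 0.18, while the survival gene Bcl2l2 rose by 1.49 ± 0.34. Between the EpiSC-like iPS and ES lines, 4 were higher and 1 lower. Leaving out the doubtful arrays gave 6 and 3, beside 50.6% of all genes either way. Hrk, a BH3-only gene, was higher there by 2.67 ± 0.35, Bcl2l1, which encodes the survival protein BCL-XL, by 1.24 ± 0.21, and Mcl1 by 0.83 ± 0.22, while Bcl2l11, encoding BIM, was lower (-1.05 ± 0.16).

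Sesn2, a stress-induced inhibitor of growth signalling through mTORC1, was lower in the NOD EpiSC-like lines than in NOD ES, where Cdkn1a was higher. Its brighter probe (A_52_P154710, mm7 chr4:131870492-131870551) read 5.63, 6.09 and 5.73 in NOD ES and 5.62 and 6.32 in EpiSC iPS. It read 4.07 and 4.13 in EpiSC-like iPS, 3.95, 3.42, 3.52 and 3.64 in EpiSC-like ES, 3.39 and 3.08 in EpiSC, 3.63 and 3.59 in mESM and 4.47 in epiESM. NOD ES and EpiSC iPS lay above every other array. Sesn2 was lower in the NOD EpiSC-like lines than in NOD ES by 1.95 ± 0.20 (a signed difference of -1.95, 3.87-fold, adjusted p = 2.01e-05; -2.04 ± 0.17 without the doubtful arrays). It was called in all 22 alternatives that gave a p, with differences from -3.09 to -1.18. Against EpiSC, Sesn2 in the NOD EpiSC-like lines did not pass (0.63 ± 0.23, adjusted p = 0.0908) and was called without the doubtful arrays (0.63 ± 0.17). In EpiSC against mESM it did not pass (-0.38 ± 0.28, adjusted p = 0.353), and the 2 state differences differed by -1.58 ± 0.35 (adjusted p = 0.0135; not called without EpiSC replicate 1, at -1.42, or either mESM array, at -1.60 and -1.56; -1.67 ± 0.26 without the doubtful arrays). By the second probe this difference was not called (-1.03 ± 0.37, adjusted p = 0.103), and was called without the doubtful arrays (-1.17 ± 0.31, adjusted p = 0.0192). NOD ES exceeded mESM by 2.21 ± 0.26 (4.62-fold, adjusted p = 0.00106; 2.30 ± 0.20 without the doubtful arrays), and EpiSC iPS exceeded EpiSC by 2.73 ± 0.28 (adjusted p = 7.5e-05; 2.39 ± 0.25 without). The call of NOD ES against mESM was lost with normexp (2.01, adjusted p = 0.322), with slide as a fixed block (2.52, adjusted p = 0.122) and with only these groups fitted (2.21, adjusted p = 0.0539). The second Sesn2 probe (A_51_P161354, chr4:131871376-131871435) gave the same signs, all called, with -1.18 ± 0.21 in the EpiSC-like lines against NOD ES, 1.27 ± 0.27 in NOD ES against mESM and 1.45 ± 0.30 in EpiSC iPS against EpiSC (-1.32 ± 0.20, 1.41 ± 0.24 and 1.21 ± 0.29 without the doubtful arrays). Over the arrays the brighter Sesn2 probe correlated with the 10-spot Trp53 probe at r = 0.90 and with the 1-spot probe at r = -0.27 (descriptions over 16 arrays of 7 groups).

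Phlda3, a pleckstrin-homology protein that opposes Akt, varied most within EpiSC iPS (SD 1.27) and NOD ES (0.51), which hold the arrays of doubtful label. The SD was 0.39 in EpiSC-like ES, 0.1 in EpiSC-like iPS, 0.04 in EpiSC and 0.01 in mESM. Its probe (A_51_P329928, mm7 chr1:135655060-135655119) read 6.15 and 6.00 in EpiSC-like iPS, 5.09, 4.43, 5.37 and 5.08 in EpiSC-like ES, 5.87, 4.86 and 5.23 in NOD ES, 4.04 and 4.09 in EpiSC, 4.77 in epiESM and 3.45 and 3.46 in mESM. EpiSC iPS replicate 1 was the highest array at 6.43, while the array labelled EpiSC iPS replicate 2 read 4.64. Phlda3 was higher in the NOD EpiSC-like lines than in EpiSC by 1.47 ± 0.43 (2.76-fold, adjusted p = 0.0378) and in NOD ES than in mESM by 1.86 ± 0.47 (3.64-fold, adjusted p = 0.0317; 1.59 ± 0.27 without the doubtful arrays). The first call was lost on leaving out any 1 of the 8 arrays other than EpiSC-like ES replicate 2 (1.40 to 1.5), and the second without NOD ES replicates 1 or 3 or either mESM array (1.59 to 1.91). The NOD EpiSC-like lines and NOD ES overlapped (0.21 ± 0.37, adjusted p = 0.692; 0.49 ± 0.22 and 0.104 without). Against EpiSC, EpiSC iPS did not pass as labelled (1.47 ± 0.51, adjusted p = 0.0643) and did without the doubtful arrays (2.37 ± 0.33, 1 array against 2, adjusted p = 0.000583, in a range up to 0.489 over all alternatives).

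Ccng1, encoding cyclin G1, an Mdm2 partner and the other member with a p53 response element near its start, again differed by probe. The probe A_52_P612803 (mm7 chr11:40691782-40691841) read 3.50 and 2.74 in EpiSC-like iPS, 3.36, 3.30, 3.51 and 3.28 in EpiSC-like ES and 2.61, 2.56 and 2.60 in NOD ES. The other probe, A_51_P161612 (chr11:40693768-40693827), read 3.40 and 3.18 in EpiSC-like iPS, 1.48, 1.15, 1.21 and 1.1 in EpiSC-like ES and 2.90, 2.35 and 2.52 in NOD ES. The first placed both EpiSC-like lines above NOD ES (0.65 ± 0.20, adjusted p = 0.0238; not called without EpiSC-like iPS replicate 1, at 0.46, or NOD ES replicates 2 or 3, at 0.63 and 0.66; 0.66 ± 0.18 without the doubtful arrays), and the second placed NOD ES between them (-0.33 ± 0.20, adjusted p = 0.222; -0.17 ± 0.14 without). With the second probe EpiSC-like iPS exceeded EpiSC-like ES by 2.05 ± 0.23 (adjusted p = 0.000159), against -0.25 ± 0.24 with the first. EpiSC read 2.69 and 2.90 on the first and 0.98 and 1.09 on the second, and mESM 2.05 and 2.06, and 2.14 and 2.13. EpiSC against mESM was thus 0.74 ± 0.28 (adjusted p = 0.0787) by the first probe and -1.1 ± 0.27 (adjusted p = 0.0137) by the second. Without the doubtful arrays these values were 0.74 ± 0.22, then called, and -1.1 ± 0.16.

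**Figure D4:**
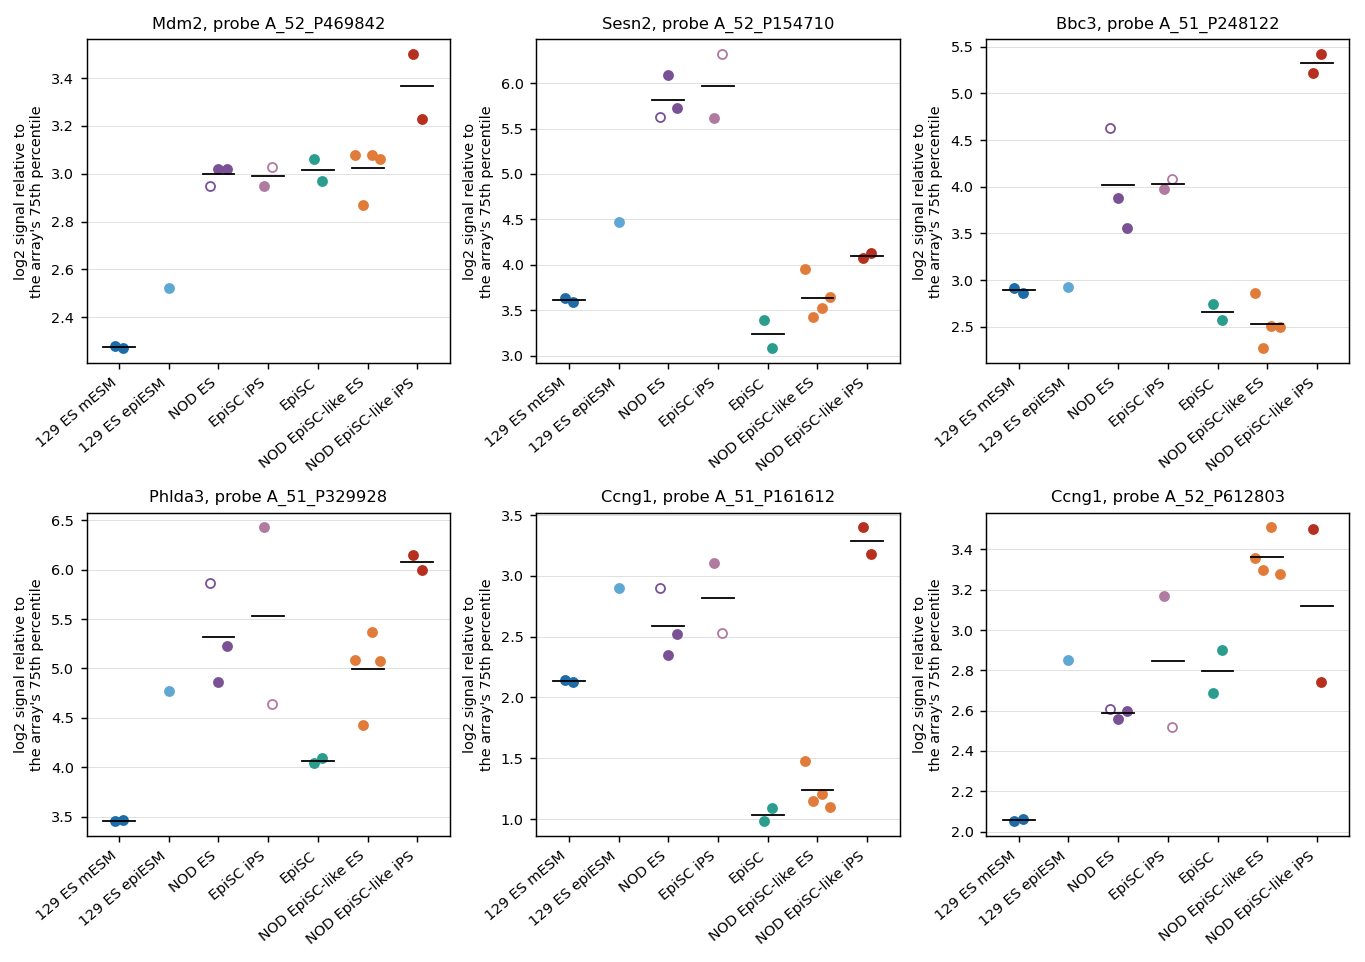
Mdm2, Sesn2, Bbc3, Phlda3 and both Ccng1 probes on each of 16 arrays, as log2 signal relative to the array's 75th percentile, with lines at group means and open points for the arrays of doubtful label. The vertical scales differ between panels. Bbc3 is highest in EpiSC-like iPS (5.22 and 5.42), and Sesn2 lies between 5.62 and 6.32 in NOD ES and EpiSC iPS.

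A wider list of 30 other p53 targets showed no common direction between the states. Between the NOD EpiSC-like lines and NOD ES, 7 were called higher and 10 lower, beside 16.7% and 22.0% of all genes (median -0.18 beside -0.27 for all genes). Without the doubtful arrays 8 and 15 were called, beside 51.7% of all genes either way. Fas, a death receptor gene, rose by 4.27 ± 0.32 (adjusted p = 2.02e-06), Dram1, a lysosomal autophagy gene, by 2.67 ± 0.43 (3.31 ± 0.26 without the doubtful arrays), and Rprm, a cell cycle inhibitor gene, by 2.55 ± 0.18. Tigar, which lowers glycolytic flux, fell by 4.37 ± 0.33 (adjusted p = 2.31e-06), Gtse1, a negative regulator of p53, by 2.34 ± 0.25, and Pmaip1 by 2.0 ± 0.18. Fas read 2.33 to 2.56 on all 6 EpiSC-like arrays, -0.51 and -0.33 in EpiSC, -1.98 to -1.76 in NOD ES and -2.42 and -2.38 in mESM, and its state difference was larger in NOD than in non-NOD lines by 2.29 ± 0.54 (adjusted p = 0.0190). In EpiSC against mESM 5 were higher and 9 lower, with Rprm (4.29 ± 0.24), Plk2 (3.29 ± 0.38) and Btg2 (3.07 ± 0.22) highest and Tigar (-4.03 ± 0.46) lowest. Leaving out the doubtful arrays gave 6 and 15 there, beside 45.9% of all genes either way.

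Between the EpiSC-like lines, 11 of the 30 were called higher in the iPS line and 4 lower, beside 14.2% and 11.6% of all genes. The median was 0.28, the same as that of all genes. Leaving out the doubtful arrays gave 13 and 5, beside 50.6% of all genes either way. Tnfrsf10b, a death receptor gene for TRAIL, read 1.18 and 1.02 in EpiSC-like iPS and -2.63 to -1.75 in EpiSC-like ES, a difference of 3.14 ± 0.38 (adjusted p = 0.000223). Ddit4, an inhibitor of mTORC1, was higher by 2.11 ± 0.20 and Perp, a desmosome and death gene, by 1.47 ± 0.36, while Btg2 (-1.47 ± 0.19), Tigar (-1.27 ± 0.40) and Sfn (-1.11 ± 0.29) were lower. Against EpiSC, the NOD EpiSC-like lines had 6 higher and 4 lower, led by Fas (2.86 ± 0.37), Dram1 (2.16 ± 0.49) and Tnfrsf10b (1.94 ± 0.37) and by Plk3 (-1.54 ± 0.27). These counts were 11 and 7 without the doubtful arrays, beside 41.3% of all genes either way. Tnfrsf10b read -2.42 and -2.39 in EpiSC, within the range of EpiSC-like ES, so that only the iPS line lay clear of EpiSC. Against mESM, NOD ES had 3 higher (Plk2, 2.22 ± 0.35, Btg2, 1.22 ± 0.20, and Rprm, 0.85 ± 0.22) and 0 lower. These counts were 9 and 3 without the doubtful arrays, beside 25.9% of all genes either way.

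The difference between the NOD and non-NOD state differences was called for 2 of 9 members, Trp53 by its brighter probe and Sesn2, beside 12.5% of all genes (5.0% higher, 7.53% lower). Their signs were opposite (2.52 and -1.58), and the Trp53 sign turned with the other probe. The Trp53 call was also lost without EpiSC-like iPS replicate 2, EpiSC-like ES replicate 3, NOD ES replicates 2 or 3, or any EpiSC or mESM array (2.10 to 2.93). Without the doubtful arrays 3 members were called, with Mdm2 added (-0.56 ± 0.18, adjusted p = 0.0358, and up to 0.39 over all alternatives), beside 35.4% of all genes.

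Without the doubtful arrays more genes were called in every one of the 7 comparisons, from 25.9% of all genes in NOD ES against mESM to 51.7% in the NOD EpiSC-like lines against NOD ES. Between the EpiSC-like iPS and ES lines the members called went from 2 to 5 (beside 50.6% of all genes), with Cdkn1a, Mdm2 and Phlda3 added, and in NOD ES against mESM from 4 to 7, with Cdkn1a and Cdkn2a higher and Trp53 lower by its brighter probe. In EpiSC against mESM they went from 5 to 6 (beside 45.9%), with Ccng1 added by its brighter probe. In the NOD EpiSC-like lines against EpiSC they went from 4 to 5 (beside 41.3%), with Sesn2 added. The mESM arrays read within 0.06 of each other on every member probe and share a source label. With both averaged as 1 array, the members called in EpiSC against mESM went from 5 to 1, Cdkn2a, beside 12% of all genes, and in NOD ES against mESM from 4 to 1, Sesn2, beside 0.695%.

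The genes whose pattern over the 16 arrays was most like that of Cdkn1a, among 19050 genes well above background on at least 8 arrays, were Thy1 (Pearson r = 0.982), S100a13 (0.976), Gpnmb (0.971), Cck (0.969) and Serpinf1 (0.966). Thy1 is also on the fibroblast list. For Cdkn2a they were Igfbp4 (0.937), Cck (0.936), F3 (0.923), Cdkn1a itself (0.919) and H1f2 (0.917). For the 10-spot Trp53 probe they were Tcof1 (0.983), Flad1 (0.981), the transcript M88489 (0.977), Klhdc4 (0.971) and Clpp (0.970). For the 1-spot probe they were the transcripts TC1561961 (0.983) and BC068233 (0.978), and Cyren (0.975), Hsf1 (0.971) and Defa3 (0.968). The arrays of a group share a line, so these values describe the order of the arrays and carry no p.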

How the data were processed

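Gene expression was measured on 16 1-colour (Cy3) Agilent arrays, design 014868, with 43379 gene spots each. Per the file headers, spot intensity was extracted with Feature Extraction 10.1.1.1 (probe positions on mm7), which subtracted background within the array. The authors also deposited a log2 value table of the same arrays, used as an alternative, and the submitters' processing notes name limma. Here log2 of the processed intensity was set relative to each array's 75th percentile. Outlier spots were left out, spots of a probe averaged, probes kept if well above background on at least 2 arrays, and the brightest probe taken per gene. limma 3.58.1 (R 4.3.3) was fitted with 7 group means, both NOD EpiSC-like lines weighted equally, and Benjamini-Hochberg adjustment over 23160 genes. Every member probe was also tested among all 34288 probes, and probe values that differ from the gene level come from that fit. The script was tested on simulated data. Probe names were updated through RefSeq, apart from 8455 of 41174 probes that kept the file's name. All 9 members were named, and of each further list at most 3 called genes a direction, by size. The members, lists and alternatives were chosen with earlier results of these data known, and the tests of the second probes after seeing the probes differ.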

Additional observations from a re-analysis of the deposited data

Results flagged for a closer look

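The Mdm2 probe A_52_P469842 read 2.87 in EpiSC-like ES replicate 2, below the other 3 arrays of that line at 3.06 to 3.08, a gap of 0.878 of the range (critical value 0.829). It was the only one of 13 member probes with such an array in that group of 4, the only group large enough to test. Chance gives such an array for about 1 in 20 probes tested, so that 1 among 13 is not unusual.

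For Trp53 the state difference was larger in NOD than in non-NOD lines by 2.52 with the brighter probe (adjusted p = 0.034), and smaller with the other (-1.79). For Sesn2 it was more negative in NOD lines, at -1.58 (adjusted p = 0.0135), and -1.03 with its second probe (adjusted p = 0.103).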

How the results depend on the processing

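In the NOD EpiSC-like lines against NOD ES, Cdkn2a and Sesn2 kept their direction and call in all 22 alternatives that gave a p, whereas the other called member results lost their call in at least 1. The cause was not tested where calls or directions changed. The number of arrays and, for Cdkn2a in ES cells, a signal near background limit the precision.

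Members called changed as follows, against 4 in the NOD EpiSC-like lines against NOD ES, 5 in EpiSC against mESM, 2 in the comparison of the state differences, 2 in EpiSC-like iPS against EpiSC-like ES, 2 in EpiSC iPS against EpiSC, 4 in the NOD EpiSC-like lines against EpiSC and 4 in NOD ES against mESM. The share of all genes called under the same setting is in parentheses. Quantile normalization gave 1 in EpiSC-like iPS against ES (26.2%), 1 in EpiSC iPS against EpiSC (20.3%) and 1 in NOD ES against mESM (8.23%), and in the first 2 comparisons it gave 5 and 6 (39.3% and 23.7%). Normexp gave 3 in the first comparison, 1 higher and 2 lower (31.7%), 1 in EpiSC against mESM (6.56%) and 0 in the other 5 (0.13%, 0.263%, 3.22%, 3.38% and 0.142%), where 2, 2, 2, 1 and 3 members had an unadjusted p under 0.05. The deposited table gave 1 for the state differences (14.4%). A filter of 8 arrays gave 4 in EpiSC iPS against EpiSC (28.4%) and 7 in NOD ES against mESM (13.1%). The mean of all probes gave 1, 4 and 4 for the state differences, EpiSC-like iPS against ES and EpiSC iPS against EpiSC (9.5%, 21.9% and 17.5%), as did the other probe, an alternative chosen after seeing the data (12.5%, 25.8% and 21.2%). Slide as a fixed block gave 2, 0, 0, 1, 1, 2 and 0 in the order above (26.4%, 8.77%, 1.2%, 9.24%, 23.1%, 11.7% and 0%), where the counts of 0 had 2, 1 and 3 members at an unadjusted p under 0.05 and the 0% had 3526 genes. As a random block it gave 1 for the state differences (10.2%). Without the doubtful arrays 6, 3, 5, 5 and 7 were called in EpiSC against mESM, the state differences, EpiSC-like iPS against ES, the EpiSC-like lines against EpiSC, and NOD ES against mESM (45.9%, 35.4%, 50.6%, 41.3% and 25.9%). EpiSC iPS then had 1 array, and no count is given for it. With the mESM arrays averaged 1, 0, 1, 2 and 1 were called in EpiSC against mESM, the state differences, EpiSC-like iPS against ES, the EpiSC-like lines against EpiSC, and NOD ES against mESM (12%, 4.36%, 21.1%, 12.3% and 0.695%), with 2 members at an unadjusted p under 0.05 for the count of 0. With only the groups compared 4, 0 and 0 were called in EpiSC-like iPS against ES, EpiSC iPS against EpiSC and NOD ES against mESM (36.8%, 2.85% and 0%), where the counts of 0 had 3 and 8 members, and the 0% had 4827 genes, at an unadjusted p under 0.05. Leaving out each array in turn gave 3 to 5, 1 to 2, 0 to 2, 1 to 2, 1 to 3, 0 to 4 and 1 to 3 in the order above.

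Directions turned for these results. In the NOD EpiSC-like lines against NOD ES, Trp53 was -0.10 with normexp, -1.17 with the mean of probes, -0.49 with slide as a fixed block, -2.89 with the other probe and -0.20 within a slide, and Ccng1 -0.51 with normexp and -0.33 with the other probe. In EpiSC against mESM, Ccng1 was -0.18 with the mean of probes and -1.1 with the other probe. The Trp53 state differences differed by -1.79 with the other probe. In EpiSC-like iPS against ES, normexp gave -0.61 for Cdkn1a, -1.24 for Mdm2 and -0.66 for Phlda3. There Ccng1 was 0.90 with the mean of probes, 0.15 with slide as a block, 2.05 with the other probe, 0.13 within a slide, and -0.63 to 0.13 leaving out each array. In EpiSC iPS against EpiSC, Cdkn1a was -0.19 with quantile normalization, -0.02 with normexp, -0.15 in the deposited table, -0.39 and -0.04 with slide as a fixed and a random block, and -0.87 to 0.94 leaving out each array (-0.10 without EpiSC replicate 2, -0.87 without EpiSC iPS replicate 1). Ccng1 was -0.29, -0.04 and -0.26 with quantile normalization, normexp and the deposited table, and -0.27 to 0.38 leaving out each array (-0.05 without EpiSC replicate 1, -0.27 without EpiSC iPS replicate 1). Trp53 was -0.01 to 0.83 leaving out each array. In the EpiSC-like lines against EpiSC, normexp gave -0.65 for Sesn2, -0.77 for Ccng1 and -0.12 for Bbc3, which was -0.06 within a slide. In NOD ES against mESM, Trp53 was 1.66 with the other probe.

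No paired analysis was possible because the labels give the groups no shared replicate numbers. Slides that held more than 1 group were used as a block instead, with the counts above. The mESM arrays were on slide 5, EpiSC on slides 1 and 3, NOD ES on slides 4 and 6, and EpiSC iPS on slide 6. EpiSC and mESM thus shared no slide, nor did NOD ES and mESM, or EpiSC iPS and EpiSC. For these comparisons no within-slide difference exists.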
